A study of Mus musculus with 16 samples.

Results

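The GADD45 and p53 stress genes described here are 10 genes chosen by name from the deposited table: Gadd45a, Gadd45b, Gadd45g, Cdkn1a, Mdm2, Trp53, Pmaip1, Bbc3, Gdf15 and Ccng1. They are 10 of the 53850 genes listed, and all 10 were among the 19594 that reached a normalised count of 10 in 4 or more libraries and were tested. RNA was sequenced from microglia sorted by flow cytometry from the cortex of young C57BL/6J mice, with 4 libraries in each of 4 groups. The groups were females given chow with PLX3397 for 1 week, females on control chow, males given the PLX3397 chow for 1 week, and males on control chow. All 4 groups were of the same strain and tissue, and PLX3397 is an inhibitor of the CSF1 receptor, whose signal microglia need to survive, so the treated libraries hold the cells that remained. The study asks why this loss of microglia differs between the sexes.

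p53, the product of Trp53, is a transcription factor that accumulates in stressed or damaged cells and switches on genes that halt the cell cycle, start cell death or end the response. Cdkn1a encodes the cyclin-dependent kinase inhibitor p21, Ccng1 encodes cyclin G1, Pmaip1 and Bbc3 encode the BH3-only death proteins NOXA and PUMA, and Mdm2 encodes the ubiquitin ligase that has p53 degraded. The 3 GADD45 proteins are small stress sensors that bind the kinase MAP3K4 upstream of p38 and JNK. Gadd45a is the member classically induced by p53, while Gadd45b is known as a gene induced by NF-kB and TGF-beta. Gdf15 encodes a secreted stress cytokine that both p53 and the integrated stress response can induce.

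The stretch before the start of transcription is shown for the 3 Gadd45 genes, because they moved apart from each other, and for Cdkn1a, the textbook p53 target. These are RefSeq sequences of build GRCm38.p6, 250 bases that end just before the annotated start, written 5′ to 3′ on the strand of the gene. Capitals mark matches to 8 motifs searched on both strands: the p53 decamer and the NF-kB motif by name, AP-1 (TGANTCA), the E-box (CACGTG), the ATF4-C/EBP composite (TGATGNAA), the cyclic AMP element (TGACGTCA), the CCAAT box and the TATA box (TATAAA).
Gadd45a, chr6:67037408-67037657 (-): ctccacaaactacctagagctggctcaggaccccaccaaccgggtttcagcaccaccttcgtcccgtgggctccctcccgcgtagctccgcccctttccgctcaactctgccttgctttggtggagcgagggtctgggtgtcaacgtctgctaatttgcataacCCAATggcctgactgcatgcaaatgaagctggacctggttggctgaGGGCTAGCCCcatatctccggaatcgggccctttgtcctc
Gadd45b, chr10:80929841-80930090 (+): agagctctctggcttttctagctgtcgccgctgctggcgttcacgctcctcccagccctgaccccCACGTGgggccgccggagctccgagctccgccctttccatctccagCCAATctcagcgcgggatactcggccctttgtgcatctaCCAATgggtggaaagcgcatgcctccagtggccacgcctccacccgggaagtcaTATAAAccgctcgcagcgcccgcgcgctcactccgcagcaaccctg
Gadd45g, chr13:51846425-51846674 (+): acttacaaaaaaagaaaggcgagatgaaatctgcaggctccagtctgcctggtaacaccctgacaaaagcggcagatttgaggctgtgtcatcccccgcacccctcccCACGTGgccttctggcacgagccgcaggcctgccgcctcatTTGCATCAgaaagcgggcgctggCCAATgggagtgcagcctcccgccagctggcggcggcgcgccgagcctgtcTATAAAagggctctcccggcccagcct
Cdkn1a, chr17:29090729-29090978 (+): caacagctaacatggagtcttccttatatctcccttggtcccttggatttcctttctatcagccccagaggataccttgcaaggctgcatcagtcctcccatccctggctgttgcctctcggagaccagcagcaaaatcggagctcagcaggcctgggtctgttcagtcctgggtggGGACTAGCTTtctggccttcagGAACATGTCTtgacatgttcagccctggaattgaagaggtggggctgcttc
In the Gadd45a window the capitals are a CCAAT box and, 40 to 31 bases before the start, a p53 decamer. A single decamer is only part of a full p53 site. The Gadd45b window holds an E-box, 2 CCAAT boxes and, 46 to 41 bases before the start, a TATA box, and no match to the p53 decamer. The Gadd45g window holds an E-box, an ATF4-C/EBP match read on the other strand, a CCAAT box and a TATA box. The Cdkn1a window shown lies at the upstream of its 2 annotated starts, which are 2790 bases apart. It holds 2 p53 decamers, the nearer one 51 to 42 bases before the start. The Cdkn1a window at the downstream start, which is not shown, held no match to any of the 8 motifs.

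Windows of 9 of the 10 genes were searched, 13 windows in all, and no window of Pmaip1 was searched. The p53 decamer matched in 5 of the 9 genes (Gadd45a, Cdkn1a, Mdm2, Trp53 and Ccng1), against 7.13% of the 32851 promoter windows of the genome. Each such match is 1 decamer, which is part of a full p53 site, and full sites were not searched for. The Cdkn1a window holds 2 such matches, at 73 to 64 and 51 to 42 bases before the start. The E-box matched in 4 (Gadd45b, Gadd45g, Bbc3 and Gdf15; 6.02% of all windows), the NF-kB motif in 1 (Bbc3; 3.9%) and the ATF4-C/EBP composite in 1 (Gadd45g; 3.45%). The letters CCAAT matched in 8 genes (33.8%) and TATAAA in 3 (12.4%), while AP-1 (6.75%) and the cyclic AMP element (1.55%) matched in 0. In Trp53 the TATAAA match was on the other strand, 248 to 243 bases before the start. A gene with several starts had several windows in which to match, so these counts are a description of letters and not of binding.

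The values are the authors' normalised read counts. They summed to between 32600000 and 44200000 per library, from an estimated 22000000 to 78600000 reads, and each male control had at least 42100000. The value of 1 read was 0.516 to 1.89 in a library. Each change is a difference of mean log2(value + 1), given ± SE, from limma, with Benjamini-Hochberg adjustment over the 19594 genes, and a gene is called when its adjusted p is under 0.05. The summed level of 8 microglial markers fits the label: it was 1531524 to 1739729 in females on PLX3397, 1967714 to 2415343 in females on control chow, 952252 to 1354303 in males on PLX3397 and 2085076 to 2250021 in males on control chow. Markers of neutrophils went with treatment. The sum of 10 was 802 to 3083 in females on PLX3397, against 0 to 6.01 in females on control chow, where S100a8, S100a9, Ltf, Ly6g, Retnlg, Mpo and Elane were at 0 in every library. It was 9919 to 70787 in males on PLX3397 and 262 to 3194 in males on control chow. A pair of libraries stood apart. Male PLX3397 replicate 3 had 14419 normalised counts of S100a8, against 2020.5 to 3184 in the other male PLX3397 libraries, and male control replicate 4 had 516 of Xist, against 14.7 to 31.4 in the other male libraries. The labels do not say that replicates were separate animals, so p-values measure the spread between these samples. In sorted bulk RNA, fewer cells of a type and less RNA per cell cannot be told apart.

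Per kilobase of merged exon, the order of the 10 genes differed between the chows. Trp53 was first on PLX3397, at 1449 ± 137 per kb in females and 908 ± 79.2 in males (SD, n = 4 each), and lay above every other member in every one of those libraries. On control chow Gadd45g was first, at 1536 ± 436 per kb in females and 1373 ± 182 in males, ahead of Trp53 at 1228 ± 137 in females and 1198 ± 66.9 in males, with ranges over libraries that overlapped. Mdm2, Ccng1 and Bbc3 followed in all 4 groups, between 311 and 702 per kb on average. On PLX3397 the ranges of neighbours overlapped between rank 3 and rank 9, and the genes at ranks 4 to 9 (Bbc3, Gadd45b, Pmaip1, Gadd45g, Cdkn1a and Gdf15) averaged 162 to 515 per kb in females and 139 to 478 in males. Gadd45a was last on PLX3397, at 37.1 ± 31.6 per kb in females and 41.7 ± 18.7 in males. On control chow the last was Gdf15, at 4.62 ± 8.88 per kb in females and 5.77 ± 7.27 in males, and Gadd45b stood next to it at 15.6 ± 4.28 and 14.5 ± 10.5.

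**Figure D1:**
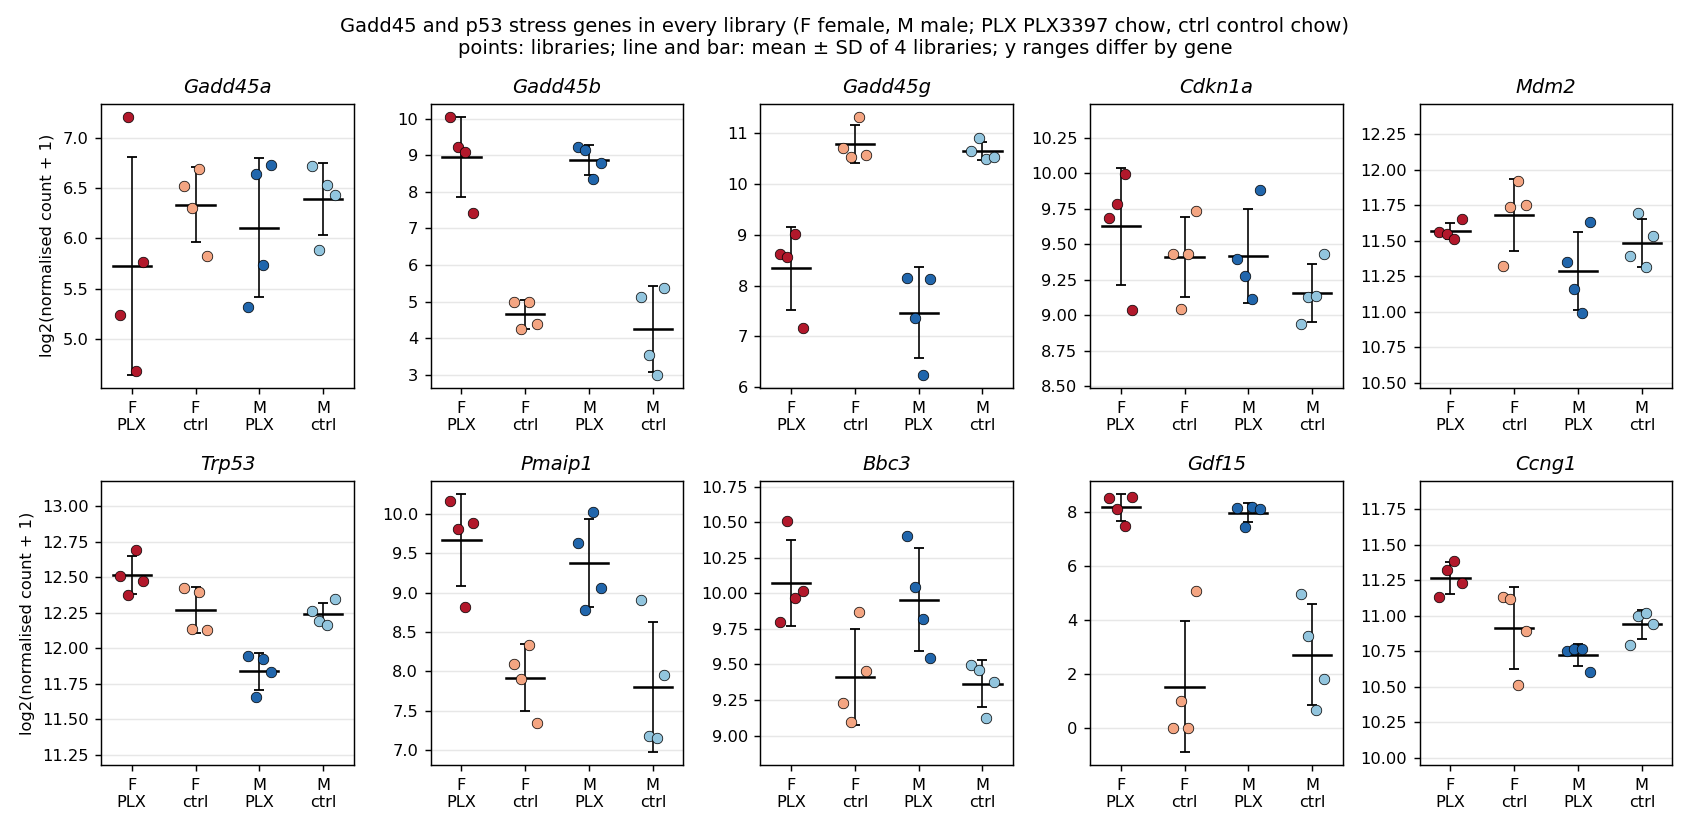
Each panel plots log2(normalised count + 1) of 1 gene in the 16 libraries, with points for libraries and a line and bar for the mean ± SD of the 4 in a group; panels have their own y range. Gadd45b and Gdf15 on PLX3397 lie above all controls of the same sex, Gadd45g lies below them, and the Cdkn1a, Mdm2 and Gadd45a points of the chows overlap in both sexes.

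The question of the treatment comparisons is which of these genes differed between microglia on PLX3397 and on control chow. In females 4 of the 10 were called, against 5.34% of all genes tested: Gadd45b, Pmaip1 and Gdf15 rose (2.67% of all genes rose) and Gadd45g fell (2.67% fell). In males 5 of the 10 were called, against 11.7% of all genes: Gadd45b, Pmaip1 and Gdf15 again rose (4.16%), and Gadd45g and Trp53 fell (7.52%). The groups did not overlap in either sex for Gadd45b and Gdf15, which were higher, and for Gadd45g, which was lower. Groups apart in this way were found in 5.13% (higher) and 5.26% (lower) of all genes in females, and in 7.71% and 9.84% in males. The median change of the 10 genes was 0.30 in females, where that of all genes was -0.00, and 0.03 in males, where that of all genes was 0.02. The 10 genes were chosen with earlier results of these data known, so the shares beside them are a description and no test of enrichment.

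Among the GADD45 genes, Gadd45b had 1061, 591, 547 and 171 normalised counts in the 4 female PLX3397 libraries, against 30.9, 18, 30.5 and 20.0 in the female controls. In males it had 593, 567, 324 and 437 on PLX3397, against 34.1, 10.6, 6.96 and 40.4 on control chow. Every PLX3397 library lay above every control library, and the lowest of them, female PLX3397 replicate 4, was still several times the highest control. Gadd45b rose by 4.29 ± 0.548 in females (19.6-fold, adjusted p = 0.00014, limma) and by 4.61 ± 0.548 in males (24.5-fold, adjusted p = 3.35e-05), higher in 4 of 4 libraries in both sexes. Neutrophil marker sums were also higher on PLX3397, and their part in the Gadd45b rise was not tested. Without the pair of libraries that stood apart the male change was 5.16 ± 0.602 (adjusted p = 0.000134).

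Gadd45g, per kb the most abundant of the family in controls, moved the other way. It had 393, 378, 519 and 142 normalised counts in females on PLX3397, against 1667, 1472, 2559 and 1509 in females on control chow. The male libraries held 281, 163, 74.6 and 278 on PLX3397, against 1610.2, 1911, 1441 and 1479.8 on control chow. All PLX3397 libraries were well below all controls, with male PLX3397 replicate 3 the lowest. Gadd45g fell by 2.44 ± 0.403 in females (5.41-fold, adjusted p = 0.00131, limma) and by 3.18 ± 0.403 in males (9.06-fold, adjusted p = 5.99e-05). Without the pair of libraries that stood apart the male value was -2.81 ± 0.39 (adjusted p = 0.000481). The summed level of 7 border-associated macrophage markers was lower on PLX3397 as well, at 830.1 to 1275 in females against 1617 to 3612 in females on control chow, and at 537 to 888 in males against 1851 to 2938 in males on control chow. Its part in the Gadd45g result was not tested.

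Gadd45a, the family member classed as a p53 target, was low in all groups and was not called. It had 36.8, 147, 24.7 and 53.3 normalised counts in females on PLX3397, against 90.8, 78.0, 102 and 55.7 on control chow. Counts in males were 38.8, 98.6, 52.2 and 105 on PLX3397, against 104, 57.9, 91.5 and 85.3 on control chow. The chows overlapped in both sexes, with the widest spread among females on PLX3397, where replicate 2 was the highest of all 16 libraries. The change was -0.61 ± 0.467 in females (adjusted p = 0.575) and -0.29 ± 0.467 in males (adjusted p = 0.77), with 95% intervals of -1.60 to 0.38 and -1.28 to 0.70. In GENCODE vM21, 859 bases of the gene's span are shared with E230016M11Rik on the other strand, which averaged 51.3 normalised counts, and the strand setting of the counting is not given in the sources used here.

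Put together per kilobase, the make-up of the family turned over. Gadd45b was 49.4 ± 10.9% of the summed level of the 3 genes in females on PLX3397 and 0.991 ± 0.212% in females on control chow (SD, n = 4 each). In males it was 60.1 ± 8.92% on PLX3397 and 1.03 ± 0.783% on control chow. Gadd45g was 44.0 ± 9.45% in females on PLX3397 against 96.1 ± 0.682% on control chow, and 31.4 ± 9.66% in males on PLX3397 against 95.5 ± 1.5% on control chow. Gadd45a stayed between 1.75% and 11.7% in all libraries. The sum of the 3 was 715 ± 324 per kb in females on PLX3397 and 1598 ± 448 on control chow, and 514 ± 149 in males on PLX3397 and 1436 ± 171 on control chow, so the gain of Gadd45b was smaller per kb than the loss of Gadd45g. A share falls when another member's level rises, so the shares are not 3 separate results.

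**Figure D2:**
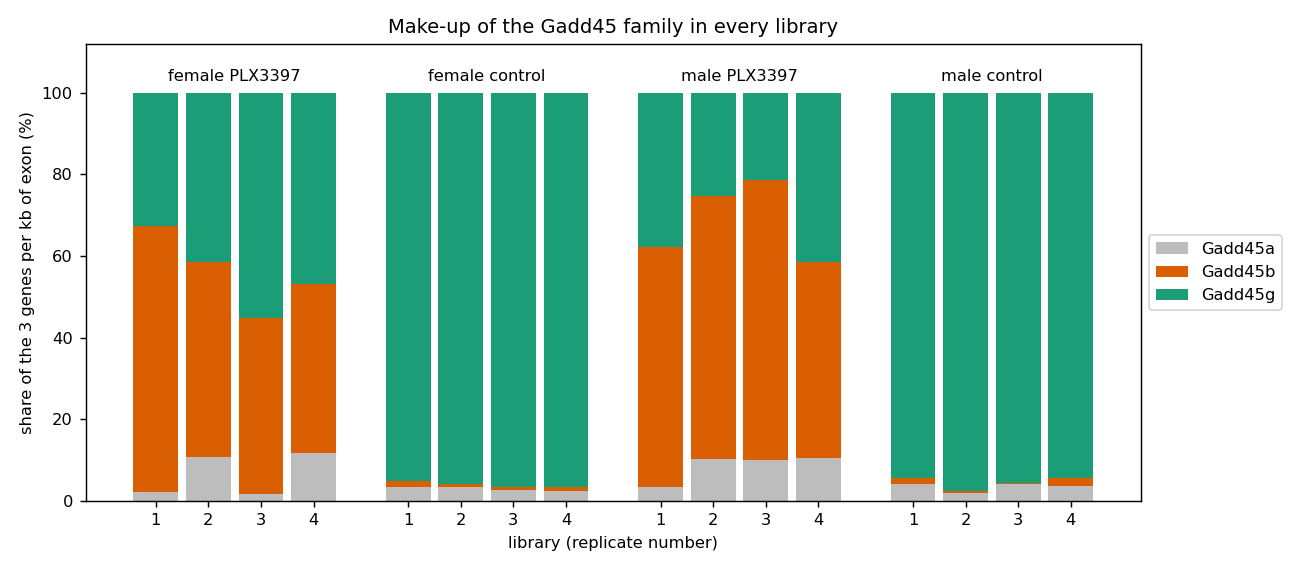
Stacked bars give the share (%) of Gadd45a, Gadd45b and Gadd45g in their summed level per kb of exon, 1 bar for each of the 16 libraries in their 4 groups. In all 8 PLX3397 libraries Gadd45b takes 41.6% to 68.6%, and in all 8 controls Gadd45g takes 94.4% or more.

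Gdf15, the secreted stress cytokine, was low in controls, at 33.2 normalised counts or less. It had 369, 279, 179 and 374 normalised counts in females on PLX3397, against 0, 1.01, 0 and 33.2 on control chow. Among males the values were 283, 172, 294 and 279.6 on PLX3397, against 30.0, 9.57, 0.586 and 2.55 on control chow. All PLX3397 libraries stood far above all controls, among which a single library in each sex reached 30 or more. The part of neutrophil RNA in the Gdf15 change was not tested. Gdf15 rose by 6.65 ± 0.985 in females (adjusted p = 0.000538, limma) and by 5.27 ± 0.985 in males (adjusted p = 0.00183), higher in 4 of 4 libraries each. The size depends on the constant added before the logarithm: it was 5.07 in females and 4.41 in males with 5 in place of 1, with both still called. Without the pair of libraries that stood apart the male change was 4.90 ± 1.19 (adjusted p = 0.0208). Gfral and Ret, which encode the receptor and co-receptor of this cytokine, were at 0 in all 16 libraries.

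Of the BH3-only death genes, Pmaip1 had 1147, 896, 452 and 945 normalised counts in females on PLX3397, against 271, 238, 323 and 161 on control chow. In males it had 791, 439.5, 1044 and 533 on PLX3397, against 477, 143, 141 and 247 on control chow. The female groups were apart (higher, as for 5.13% of all genes), whereas in males control replicate 1 lay above PLX3397 replicate 2. Pmaip1 rose by 1.76 ± 0.394 in females (3.38-fold, adjusted p = 0.0127, limma) and by 1.58 ± 0.394 in males (2.99-fold, adjusted p = 0.0139). The male call ended without male PLX3397 replicate 3 (1.36, adjusted p = 0.0526), without male control replicate 2 (1.38, adjusted p = 0.0525) and without the pair that stood apart (1.42 ± 0.457, adjusted p = 0.0781). The part of neutrophil RNA in the Pmaip1 change was not tested.

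Bbc3 had 889, 1454, 999.6 and 1036 normalised counts in females on PLX3397, against 598, 547, 933 and 700.0 on control chow. The male libraries held 1353, 1058, 905 and 746 on PLX3397, against 720.2, 703, 558 and 664 on control chow. The male groups did not overlap (higher, as for 7.71% of all genes), and in females 1 control, replicate 3, lay above 1 PLX3397 library. Neither change was called: it was 0.66 ± 0.209 in females (adjusted p = 0.0825) and 0.59 ± 0.209 in males (adjusted p = 0.0822). Bbc3 was called in females without control replicate 3 (0.81, adjusted p = 0.0357). In males it was called without PLX3397 replicate 4 (0.73, adjusted p = 0.0362), after upper-quartile scaling (0.66, adjusted p = 0.0448), once library totals were made equal (0.75, adjusted p = 0.026) and under array weights (0.58, adjusted p = 0.0405).

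Cdkn1a and Mdm2, which encode the p21 arrest protein and the p53 ligase, were not called in either sex. Cdkn1a had 823, 879, 1020.5 and 524 normalised counts in females on PLX3397, against 690.4, 528, 689 and 851 on control chow. Counts in males were 674, 619, 554 and 944 on PLX3397, against 489.7, 559.8, 561 and 689 on control chow. The chows overlapped in both sexes, and the change was 0.21 ± 0.219 in females (adjusted p = 0.706, 95% interval -0.25 to 0.68) and 0.26 ± 0.219 in males (adjusted p = 0.521, interval -0.20 to 0.72). Mdm2 had 3023, 2991, 2922 and 3211 normalised counts in females on PLX3397, against 2561, 3403, 3875 and 3441 on control chow. Among males the values were 2608, 2286, 2035 and 3171 on PLX3397, against 2689.9, 3319, 2541 and 2960.3 on control chow. Here too the chows overlapped, and the change was -0.11 ± 0.146 in females (adjusted p = 0.779, interval -0.42 to 0.20) and -0.20 ± 0.146 in males (adjusted p = 0.445, interval -0.51 to 0.11). The intervals therefore leave room for a change of Cdkn1a up to 0.72 and of Mdm2 down to -0.51. Cdkn1a shares 1046 bases of span with AC167363.2 on the other strand, which averaged 6.80 normalised counts.

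Trp53, the p53 gene itself, had 5814, 5306, 6625 and 5695 normalised counts in females on PLX3397, against 5504, 4505, 5387 and 4473 on control chow. In males it had 3939, 3233, 3881 and 3645 on PLX3397, against 4902, 4689, 4587 and 5199 on control chow. In males all PLX3397 libraries lay below all controls (as for 9.84% of all genes), and in females the chows overlapped. Trp53 fell by 0.40 ± 0.102 in males (1.32-fold, adjusted p = 0.0162, limma), and its change in females, 0.24 ± 0.102, was not called (adjusted p = 0.229). The male PLX3397 libraries had neutrophil marker sums of 9919 to 70787, whose part in the fall was not tested. The male call depended on the scaling and on single libraries. It was -0.28 after quantile normalisation (adjusted p = 0.0635), -0.24 once library totals were made equal (adjusted p = 0.103), -0.34 without male PLX3397 replicate 2 (adjusted p = 0.0571), -0.37 without male control replicate 4 (adjusted p = 0.0515) and -0.39 without the pair that stood apart (adjusted p = 0.0681). Equal totals moved the median of all genes in males to 0.18, and the calls over all genes to 1348 higher and 917 lower, against 815 higher and 1474 lower with the deposited scaling; upper-quartile scaling gave 1032 and 1224, and quantile normalisation 1040 and 1188. Relative to the median of all genes, the Trp53 change in males was -0.42 with the deposited scaling and -0.42 with equal totals. Rescaling shifts all genes of a library nearly alike, so this relative value could hardly move and does not bear on the call. Wrap53, the neighbour of Trp53 on the other strand, shares no span with it in GENCODE vM21 and averaged 646 normalised counts in females on PLX3397, 566 in females on control chow, 465 in males on PLX3397 and 417 in males on control chow.

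Ccng1, the cyclin G1 gene, had 2239, 2558, 2670.2 and 2396 normalised counts in females on PLX3397, against 2240.5, 2218, 1457 and 1900.1 on control chow. The male libraries held 1722, 1742, 1739 and 1555 on PLX3397, against 1771, 2042, 2076 and 1968 on control chow. The female groups touched at a single pair of libraries, and the male PLX3397 libraries lay just below the male controls, a gap found in 9.84% of all genes. Neither change was called: it was 0.35 ± 0.129 in females (adjusted p = 0.15) and -0.22 ± 0.129 in males (adjusted p = 0.34).

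**Figure D3:**
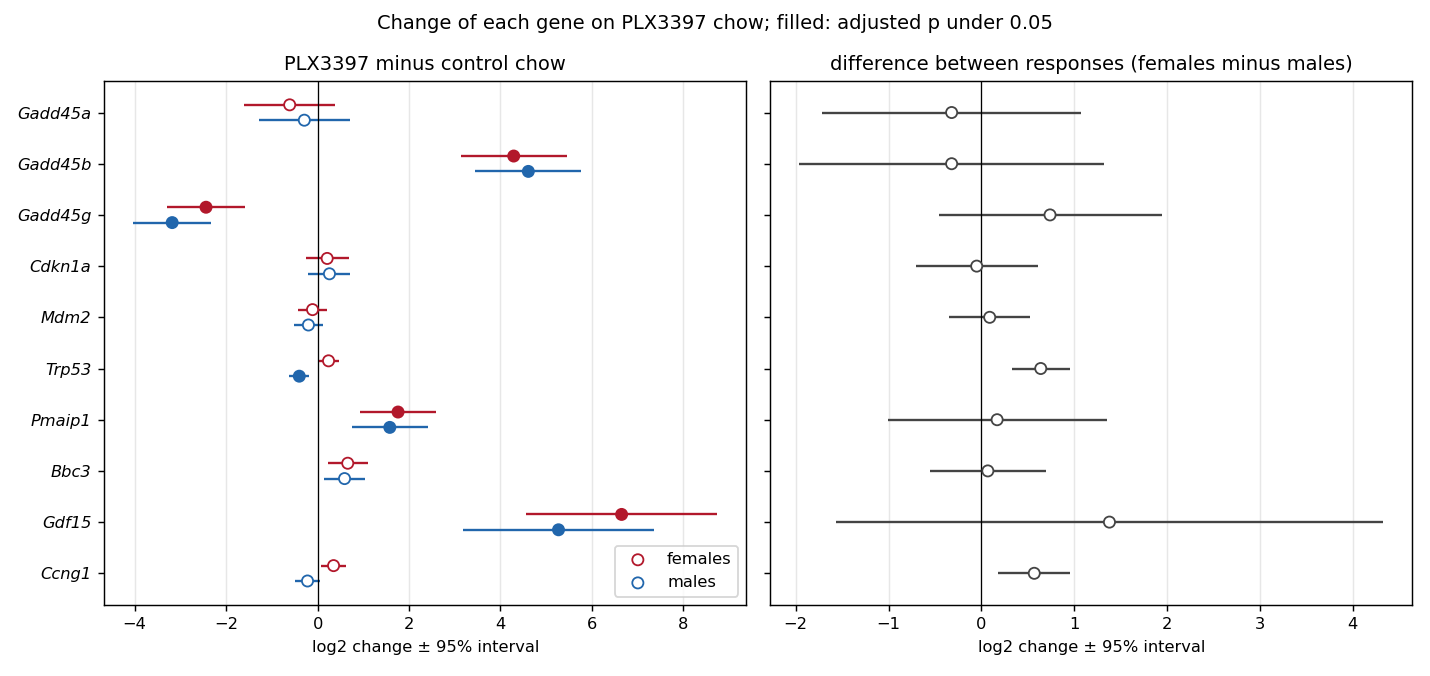
The left panel plots, for each gene, the log2 change with its 95% interval on PLX3397 in females (red) and males (blue), filled where the adjusted p is under 0.05, and the right panel plots the female change minus the male change. Gadd45b, Pmaip1 and Gdf15 are to the right of 0 and Gadd45g to the left in both sexes, and no point in the right panel is filled.

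The difference between the female and the male response was then tested for each gene. None of the 10 was called, and neither was any of the 19594 genes tested (0%, limma); at an unadjusted p under 0.05 there were 2010 genes (10.3%), among them 2 of the 10, Trp53 and Ccng1. The smallest p-values were those of these 2: the female response of Trp53 minus the male one was 0.64 ± 0.145 (adjusted p = 0.208), and that of Ccng1 was 0.57 ± 0.183 (adjusted p = 0.297). For the genes called in both sexes the difference was -0.32 ± 0.774 for Gadd45b (interval -1.96 to 1.32, adjusted p = 0.925), 0.74 ± 0.571 for Gadd45g (interval -0.46 to 1.95, adjusted p = 0.707), 0.17 ± 0.557 for Pmaip1 (interval -1.01 to 1.35, adjusted p = 0.947) and 1.38 ± 1.39 for Gdf15 (interval -1.57 to 4.33, adjusted p = 0.789). These intervals are wide, and a sex difference of 1 log2 unit lies inside all 4. With voom weights 0 genes were called over the whole table, and without the pair of libraries that stood apart 1 was higher and 1 lower, neither among the 10. Leaving out single libraries gave between 0 and 6 calls over the whole table and 0 among the 10.

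Females and males were also compared directly on each chow. On PLX3397, 2 of the 10 genes were higher in females, against 4.28% of all genes (5.43% were called in either direction). Trp53 averaged 5860.1 ± 554 normalised counts in females on PLX3397 and 3675 ± 320.4 in males on PLX3397 (SD, n = 4 each), a difference of 0.67 ± 0.102 (1.59-fold, adjusted p = 0.00371, limma), with every female library above every male one (6.76% of all genes). Ccng1 averaged 2466 ± 189 in females and 1689.7 ± 90.3 in males, a difference of 0.54 ± 0.129 (1.46-fold, adjusted p = 0.0256), again without overlap. Neutrophil marker sums were 802 to 3083 in these females and 9919 to 70787 in these males. Of the 8 microglial markers, 7 were called higher in the females (87.5%, against 4.28% of all genes). The part of such differences between the libraries in the Trp53 and Ccng1 values was not tested. On control chow 0 of the 10 were called, against 0.0663% of all genes, and at an unadjusted p under 0.05 there were 0 of the 10 and 1017 of all genes: Trp53 averaged 4967 ± 554 in females and 4844 ± 271 in males, and Ccng1 1954 ± 366 and 1964 ± 136 in the same order. This comparison shares its PLX3397 libraries with the treatment comparisons and is no separate evidence for the Trp53 fall in males. The Trp53 call ended when the 2 groups were fitted alone (adjusted p = 0.0552), and held without the pair of libraries that stood apart (0.70 ± 0.115, adjusted p = 0.0145). The Ccng1 call ended in that fit (adjusted p = 0.0721), with upper-quartile scaling (0.39, adjusted p = 0.122), quantile normalisation (0.39, adjusted p = 0.145) or totals made equal (0.34, adjusted p = 0.197), without the pair of libraries (0.56, adjusted p = 0.0714) and without replicate 2 or 3 of either PLX3397 group (adjusted p = 0.0566 to 0.0718). Calls over all genes were 838 higher and 226 lower in females with the deposited scaling, 265 and 341 after upper-quartile scaling (median change -0.17), 196 and 375 once totals were equal (median change -0.22), and 246 and 221 after quantile normalisation. With the 2 groups fitted alone, only 26 genes were higher and 18 lower. Without male PLX3397 replicate 2 there were 268 and 64, and without male PLX3397 replicate 4 there were 1024 and 218. Relative to the median, the Ccng1 difference was 0.57 with the deposited scaling and 0.56 with equal totals. Here too rescaling could hardly move the relative value, which does not bear on the call.

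Other genes of the pathway were taken from lists, which were also chosen with earlier results of these data known. Of 25 further p53 targets, 24 were tested (all but Eda2r), and their median change was 0.19 in females and 0.09 in males, against -0.00 and 0.02 for all genes. In females 1 rose and 1 fell, with 22 not called (8.33% called, against 5.34% of all genes), and in males 0 rose and 3 fell, with 21 not called (12.5%, against 11.7% of all genes). In males the share called is close to that of all genes. Bax, a pore-forming death protein, averaged 6179 normalised counts in females on PLX3397 and 4552 on control chow, a rise of 0.44 ± 0.0984 (adjusted p = 0.0125, limma). Plk3, a stress kinase, averaged 2358 in females on PLX3397 against 4237 on control chow and 2050.2 in males on PLX3397 against 4187 on control chow, falls of 0.86 ± 0.206 (adjusted p = 0.0189) and 1.03 ± 0.206 (adjusted p = 0.0031). Sesn1, a sestrin that restrains mTORC1, averaged 5192 in males on PLX3397 and 7746 on control chow, a fall of 0.58 ± 0.128 (adjusted p = 0.00635), and Aen, an apoptosis nuclease, 680.1 and 1109, a fall of 0.71 ± 0.193 (adjusted p = 0.023). In the difference between the sexes 0 of the 24 were called. The female Plk3 call ended without female PLX3397 replicate 2 or 4 or female control replicate 1 or 3 (adjusted p = 0.0555 to 0.0606), and the Aen call with equal totals (-0.55, adjusted p = 0.0995) and without male PLX3397 replicates 1, 2 or 3 or male control replicates 2 or 3 (adjusted p = 0.0545 to 0.0663), and without the pair that stood apart (-0.66, adjusted p = 0.113).

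Of 14 genes that regulate p53, 0 were called in females (against 5.34% of all genes) and 2 rose in males (14.3%, where 11.7% of all genes were called and 4.16% rose). The median change was 0.09 in females and 0.42 in males, against -0.00 and 0.02 for all genes. Mdm4, an MDM2 relative that inhibits p53, averaged 4108 normalised counts in males on PLX3397 and 2929 on control chow (0.49 ± 0.128, adjusted p = 0.0193), and Ep300, an acetyltransferase that acts on p53, 5202 and 3641 (0.51 ± 0.129, adjusted p = 0.0143). Each of these calls ended without 1 or another male library, Mdm4 without PLX3397 replicate 2 or 4 or control replicate 2 or 3 (adjusted p = 0.0559 to 0.0704) and Ep300 without PLX3397 replicate 2 or control replicate 3 (adjusted p = 0.0534 and 0.0503). Of 12 partners of the GADD45 proteins and kinases below them, 1 fell in each sex, Mapk14, which encodes p38 alpha. That is 8.33% of the list, against 5.34% of all genes called in females and 11.7% in males. It averaged 8891 normalised counts in females on PLX3397 against 11473 on control chow (-0.37 ± 0.091, adjusted p = 0.0221) and 7967 in males on PLX3397 against 10249 on control chow (-0.36 ± 0.091, adjusted p = 0.0158). The male value was -0.14 with quantile normalisation (adjusted p = 0.33) and -0.20 with equal totals (adjusted p = 0.159). It was not called without male control replicate 1 or 2 (adjusted p = 0.0602 and 0.0607), and the female one not without female PLX3397 replicate 1 or 2 or female control replicate 1, 3 or 4 (adjusted p = 0.0521 to 0.0814). On PLX3397 chow 1 of the 24 further p53 targets tested, Sesn2, was higher in females than in males (0.81 ± 0.209, adjusted p = 0.0362, limma). That is 4.17% of the list, close to the 4.28% of all genes that were higher. Of the 14 genes that regulate p53, 2 checkpoint kinase genes were lower, Atr (-0.66 ± 0.182, adjusted p = 0.0459) and Chek2 (-0.72 ± 0.194, adjusted p = 0.0426). That is 14.3% of the list, where 1.15% of all genes were lower. These 3 were named after their values were seen, and each call ended without 1 of several libraries, with adjusted p up to 0.125, 0.126 and 0.139 in the same order. Over all alternatives run, the Sesn2 call was lost in 9 and kept in 19. The Atr call was lost in 16 and kept in 12, and the Chek2 call was lost in 15 and kept in 13.

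In the integrated stress response, the translational stress pathway that can also raise Gdf15, 14 of 15 genes were tested (all but Vldlr). Atf3, a stress-induced transcription factor, had 5699, 3526, 2528 and 2368 normalised counts in females on PLX3397, against 1054, 1085, 735 and 1174 on control chow. Counts in males were 3829.8, 2684, 2676 and 2959 on PLX3397, against 1057, 1107, 909 and 771 on control chow. All PLX3397 libraries lay above all controls of the same sex, as for 5.13% of all genes in females and 7.71% in males. Atf3 rose by 1.73 ± 0.238 in females (3.32-fold, adjusted p = 0.000284, limma) and by 1.66 ± 0.238 in males (3.15-fold, adjusted p = 0.000194). Trib3, a pseudokinase induced by ATF4 and CHOP, rose in females (4.83 ± 1.21, adjusted p = 0.0254), with 65.6, 148, 37.9 and 48.7 on PLX3397 against 0, 28.6, 0 and 0 on control chow. That call ended without either of female PLX3397 replicates 1 and 2 or any of female control replicates 1, 3 and 4 (adjusted p = 0.0615 to 0.0815), and with voom weights (adjusted p = 0.119). The other 12 tested in females and 13 in males were not called. The share called was 14.3% in females, against 5.34% of all genes, and 7.14% in males, against 11.7% of all genes. Among them Atf4, the central factor, averaged 5558 in females on PLX3397, 5791 in females on control chow, 4442 in males on PLX3397 and 5303 in males on control chow, and Ddit3, which encodes CHOP, 1589, 1414, 1569.7 and 1341 in the same order. The medians were 0.01 in females and 0.09 in males.

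Of 14 genes known to rise when tissue is dissociated, 13 were tested (all but Fosb). In females 3 rose and 10 were not called (23.1%, where 2.67% of all genes rose), and in males 2 rose and 11 were not called (15.4%, where 4.16% rose). Their median change was 0.81 in females and 0.67 in males, against -0.00 and 0.02 for all genes. Ier3, an immediate early survival gene, rose by 1.09 ± 0.286 in females (adjusted p = 0.0335) and 0.98 ± 0.286 in males (adjusted p = 0.0351). Hspa1b, an inducible heat shock protein gene, rose by 3.27 ± 0.869 in females (adjusted p = 0.0354) and 3.05 ± 0.869 in males (adjusted p = 0.0302), and Nfkbia, the NF-kB inhibitor gene, by 0.81 ± 0.152 in females (adjusted p = 0.00353). Ier3 had 1838, 1029, 1010.2 and 646 normalised counts in females on PLX3397, against 413, 394, 734 and 505 on control chow. Hspa1b had 135, 416, 449 and 3278 in females on PLX3397, against 61.8, 24.8, 104 and 56.4 on control chow. Female PLX3397 replicate 1 was the highest of its group for Ier3 and the lowest for Hspa1b, and replicate 4 the reverse. The part of dissociation in the changes of Gadd45b, Atf3, Pmaip1 and Gdf15 was not tested. The Ier3 and Hspa1b calls ended without 1 of several libraries, with adjusted p up to 0.107 and 0.103 in females and 0.115 and 0.0974 in males.

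**Figure D4:**
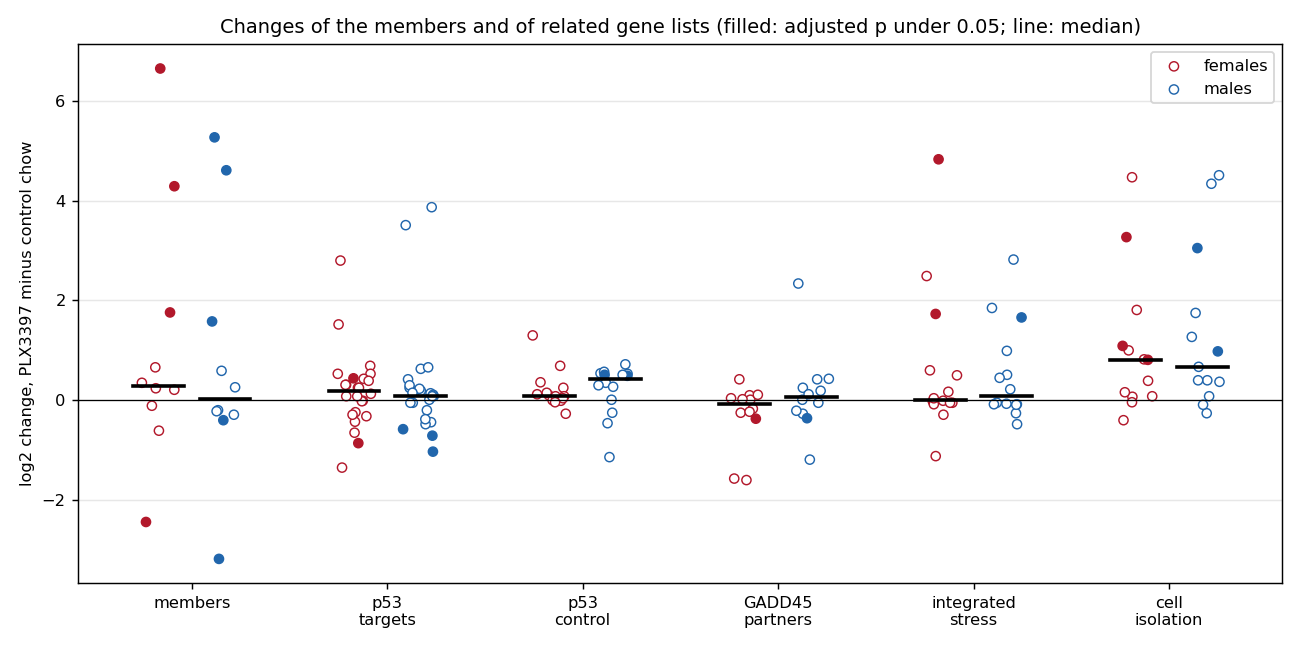
Points are the log2 changes on PLX3397 of the 10 genes and of 5 related lists, females in red and males in blue, filled where the adjusted p is under 0.05, with a line at each median. The 10 genes span -2.44 to 6.65 in females and -3.18 to 5.27 in males, while the p53 targets have medians of 0.19 and 0.09 and 2 and 3 filled points.

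Genes with a pattern most like 4 of the 10 were found by the Euclidean distance between centred log2 values over the 16 libraries, among 13524 genes with a mean of at least 50. A larger distance means a less similar pattern. Nearest to Gadd45b were Lilr4b (distance 1.87), Gm49339 (2.63) and Chst2 (2.79). Lilr4b averaged 2397 normalised counts in females on PLX3397, 176 in females on control chow, 2973 in males on PLX3397 and 145 in males on control chow. Nearest to Gdf15 were Lgals3, the galectin-3 gene (5.09), Bcar3 (5.40) and Mmp12, a macrophage elastase gene (5.54), at larger distances. Lgals3 averaged 7141 in females on PLX3397, 63.2 in females on control chow, 8636 in males on PLX3397 and 129.6 in males on control chow. Nearest to Cdkn1a were Vkorc1 (0.70), Rps2 (0.72) and Snrpd2 (0.75), and nearest to Mdm2 were Agpat5 (0.55), Prkar1a (0.57) and Med20 (0.58). These 6 genes vary little between groups, as Cdkn1a and Mdm2 do, and a small distance among such genes says little.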

How the data were processed

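Cortical microglia of young mice were profiled in 16 libraries. Per the labels' protocols, cDNA was pre-amplified from 500 pg of RNA and 150 pg of it made into libraries. The deposited table holds 1 signal per gene and library, the authors' normalised read counts, whose formula is not given in the sources used here; the submitters' processing notes name STAR 2.7.9a, featureCounts 2.0.1, Salmon 1.5.2 and build GRCm39, with no role. One read was worth 0.516 to 1.89, slightly different by gene, so whole reads were not recovered and no count model or counting interval was used; precision is the SE. Symbols were matched for 51029 of 53850 identifiers.

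The 19594 genes that reached 10 in 4 libraries entered a limma 3.58.1 fit (R 4.3.3) of log2(value + 1): 1 mean per group over 16 libraries, trend on mean value, two-sided, Benjamini-Hochberg adjusted p under 0.05, in 5 comparisons. The procedure was also run on simulated data, but the outcome is not given here and is no support for the calls. The genes and lists were chosen with earlier results of these data known, and no list was tested as a set. The text names the 10 genes, list members called in a treatment response, the 3 nearest genes to Gadd45b, Cdkn1a, Mdm2 and Gdf15, and Wrap53, with S100a8 and Xist as checks, by rule; outside it, Atf4, Ddit3, Gfral, Ret, Sesn2, Atr and Chek2 were named after their values were seen, as were the neutrophil markers at 0 and 2 overlapping genes. Levels per kb use merged exon lengths of GENCODE vM21 (GRCm38). Alternatives were pseudocounts, filters, scalings, weights, 2 groups alone, a replicate block and left-out libraries. Python 3.11.15 and matplotlib 3.10.9 made the figures.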

Additional observations from a re-analysis of the deposited data

Results flagged for a closer look

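In 40 groups of 4 libraries (10 genes in 4 groups), the lowest or highest value was tested for its distance from the other 3, relative to the range of the group on the log2 scale. Chance flags about 1 group in 20. A pair of groups was flagged, both in males on PLX3397. Gdf15 was lowest in male PLX3397 replicate 2, at 172 normalised counts, against 279.6 to 294 in the other 3 libraries, with the gap making up 0.907 of the range. Ccng1 was lowest in male PLX3397 replicate 4, at 1555 normalised counts, against 1722 to 1742 in the other 3, with the gap making up 0.897 of the range. Both values lie on the same side of the control group as the other libraries of their group.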

How the results depend on the processing

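Over 48 results of single genes and their alternatives, 1202 of 1338 values kept direction and call, 126 lost the call, 5 gained it and 5 turned. Gadd45b, Gadd45g and Gdf15 kept their calls in both sexes under every alternative run, and Pmaip1 in females. Without any 1 library their changes were 3.93 to 4.80 and 4.19 to 4.98 for Gadd45b in females and males, -2.66 to -2.04 and -3.40 to -2.77 for Gadd45g, 6.14 to 7.84 and 4.59 to 6.02 for Gdf15, and 1.56 to 2.04 for Pmaip1 in females. Of the 10 genes, 3 in place of 5 were called in males without the pair of libraries that stood apart. In females against males on PLX3397, 1 in place of 2 was called without that pair, with upper-quartile scaling, quantile normalisation or equal totals, 0 with the 2 groups alone, and 1 to 2 when single libraries were left out. For the p53 targets in females, 1 to 2 were called when single libraries were left out. Single libraries also turned the sign of differences between the sexes that were never called: Gadd45b ranged from -0.69 to 0.19 and Pmaip1 from -0.20 to 0.46. The cause of these moves was not tested, though leaving libraries out also lowers the number of samples.

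Little pairing by replicate number was seen: deviations of same-numbered libraries correlated at -0.045 to 0.115. The highest was that of female control replicate 2 with male PLX3397 replicate 2, against at most 0.02 with male PLX3397 libraries of other numbers. Whether libraries shared a sort or a batch was not tested. With the replicate number as a block, 4 of the 10 genes were called in females, 5 in males, 0 in the difference between the sexes and 2 between the sexes on PLX3397, as without it. Over all genes the block gave 486 higher and 476 lower in females, 762 and 1374 in males. Part of the Gdf15 controls were at 0 or within a few reads of it, so depth limits those values and the pseudocount sets part of the size of the Gdf15 change.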
